A study of Mus musculus with 24 samples.

Results

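Oxidative phosphorylation genes encode the subunits of the respiratory chain and of ATP synthase. They were taken by symbol: complex I (Nduf genes), complex II (Sdh), complex III (Uqcr), complex IV (Cox) and complex V (Atp5), together with the genes of these complexes that lie in mitochondrial DNA (mt-Nd, mt-Cytb, mt-Co and mt-Atp). Ndufa4 and Ndufa4l2 were counted in complex IV. The hepatocyte table held 97 such rows among 31053, of which 84 were nuclear and 13 mitochondrial. There were 99 among the 25876 rows of Cho-Orgs and 99 among the 20729 rows of the Smart-Seq libraries, each time with 86 nuclear and 13 mitochondrial genes. No mt- symbol occurs in these last tables, where the 13 mitochondrial genes are listed under other names and were matched by gene number. No symbol with -ps was met. With an FPKM (fragments per kilobase of gene and per 1000000 fragments) of at least 1 in at least 3 libraries, 90 members passed the filter among hepatocytes and Hep-Orgs, 95 in Cho-Orgs and 93 in Smart-Seq.

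Electrons from NADH enter the chain at complex I and those from succinate at complex II. Complexes III and IV pass them on to oxygen, and the proton gradient built on the way drives ATP synthesis by complex V. Complex II is made by nuclear genes alone, whereas the other complexes combine nuclear subunits with subunits that mitochondria transcribe and translate themselves. Hepatocytes are rich in mitochondria and use the ATP for urea, glucose and protein synthesis. Cholangiocytes line the bile ducts.

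All libraries came from cells of wild-type adult BALB/c mouse liver. Primary hepatocytes (Pri-Hep, EpCAM-negative cells from a density gradient) and hepatocyte organoids (Hep-Orgs) at passages P1, P5 and P10 were compared, the organoids having grown in Matrigel in a hepatocyte medium (Hep-Med) with the Notch pathway inhibitor DAPT and the glucocorticoid dexamethasone. Cholangiocyte organoids (Cho-Orgs) were grown from EpCAM+ cells, in a medium without DAPT and dexamethasone, and sampled at P0, P5 and P10. Each of these 7 groups had 3 poly(A) libraries, and a single Smart-Seq library was made for each shape of P0 Hep-Orgs in Hep-Med, namely grape-like, round-like and intermediate. By the study's methods every replicate was a culture of its own, and its captions use the replicate number for the mouse. The labels state neither, though those of Cho-Orgs end in M1, M2 and M3. Fewer cells of a type and less RNA per cell cannot be told apart in such libraries.

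Several libraries stood apart from their labels. In the hepatocyte table all 12 libraries were much alike, with Alb (albumin) between 106 and 128 FPKM and the biliary keratin Krt19 between 229 and 247 FPKM in primary cells and organoids alike. The summed level of 10 hepatocyte markers was 614 to 677 FPKM and that of 10 cholangiocyte markers 3850 to 4068 FPKM. The mean chi-square per gene between 2 libraries had a median of 2.24 within groups (12 pairs, 1.93 to 3.18) and 2.55 between groups (54 pairs, 1.82 to 4.56). In Cho-Orgs the hepatocyte marker sum was 6420 to 7287 FPKM at P0, 165 to 212 at P5 and 35.6 to 38.1 at P10. The sum of 10 proliferation markers was 379 to 556, 201 to 207 and 86.9 to 94.8 FPKM, and that of the cholangiocyte markers 5141 to 6553, 3548 to 3683 and 3390 to 3419 FPKM. Of the 9 cholangiocyte markers tested at P10 against P0, 4 were higher and 4 lower (all genes 41% and 31.3%). Among them Krt7 read 228 to 268 FPKM at P0 and 914 to 924 at P10, and Krt19 996 to 1141 and 1387 to 1420 FPKM. Macrophage markers summed to 43.8 to 49.5, 72.1 to 77.3 and 10.1 to 10.5 FPKM. Of these 10 genes, 2 or 3 were at 1 FPKM or more in each P0 library, and only 1 in each P5 and P10 library. Lyz2 read 9.63 to 15.8 FPKM at P0 and 0 at P5 and P10. The part of these cell markers in the changes described next was not tested. The recovered depth per library was 14068906 to 27160365 fragments for hepatocytes and Hep-Orgs, 37425638 to 39898904 for Cho-Orgs and 37580463 to 39752245 for Smart-Seq.

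Of the mitochondrial genes, 7 have copies in a single block of nuclear DNA, which bears on how far their values can be read. In the GENCODE M21 annotation (GRCm38), 7 unprocessed pseudogenes lie at chr1:24611535-24616197, and each matches 1 mitochondrial member over its aligned length. The copies of mt-Co2, mt-Co3, mt-Atp6, mt-Nd3, mt-Nd4l and mt-Nd4 were identical to the gene at every aligned base, whereas the copy of mt-Co1 had 1 mismatch in 483 aligned bases. None of the 7 copies has a row in any of the tables. A stretch of mt-Co3 (chrM:8707-8766, plus strand) and the same stretch of its copy Gm28437 (chr1:24613812-24613871, minus strand) are shown because a read from one cannot be assigned to it rather than to the other.
mt-Co3: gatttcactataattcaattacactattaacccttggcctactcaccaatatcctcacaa
Gm28437: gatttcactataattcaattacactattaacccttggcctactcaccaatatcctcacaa
The mismatch of mt-Co1 (chrM:6390-6423, plus strand) and Gm29216 (chr1:24616155-24616188, minus strand) stands in capitals in the next pair.
mt-Co1: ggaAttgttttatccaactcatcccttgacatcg
Gm29216: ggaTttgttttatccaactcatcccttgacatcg

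Of all 100-base windows of the transcript, 99.9% occurred in another gene for mt-Co3, 99.5% for mt-Co2, 99.5% for mt-Atp6, 98.5% for mt-Nd4l and 97.6% for mt-Nd3. These 5 genes had low values throughout, from 28.2 to 626 FPKM in hepatocyte libraries, 4.80 to 281 in Cho-Orgs and 1.08 to 59.6 in Smart-Seq. For mt-Nd4 (chrM:10167-11544) the share was 60.8% and for mt-Co1 (chrM:5328-6872) 30.8%, and both were among the abundant members. mt-Nd2 shared 3.2% of its windows with Gm13339. Windows of mt-Co1 and mt-Co2 also occurred in Gm13340 and Gm13341. These genes are not among the copies on chromosome 1 given above, and whether they have rows was not checked. mt-Cytb, mt-Nd1, mt-Nd5, mt-Nd6 and mt-Atp8 shared no window with another annotated transcript, and unannotated copies were not searched. Whether fragments that match a gene and its copy were counted is not given in the sources used here, and the part of the copies in the low levels was not tested. The 5 genes are therefore uncertain. mt-Nd4l (chrM:9877-10173) in addition overlaps the start of mt-Nd4, and mt-Nd6 lies on the opposite strand to the other members, where reads from both strands cannot be told apart unless the counting used strand. The study describes the bulk reads as strand-specific, and whether the counting used this is not given in the sources used here. Among the nuclear genes Atp5l shared 69.0% of its windows with pseudogenes, Ndufb4 shared 33.4% with Ndufb4c and Ndufb4c all of its own, and at least 1 shared window was found in 37 of the 99 members.

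**Figure D1:**
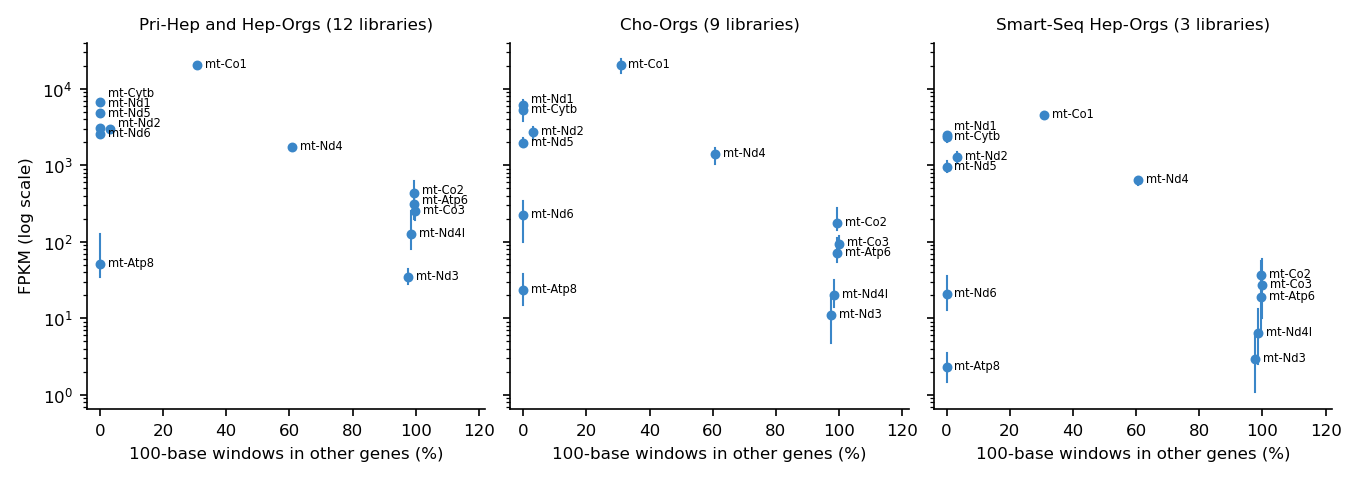
FPKM (log axis) of each of the 13 mitochondrial members against the percentage of its 100-base windows that occur in other genes, in each of the 3 tables; points are means over the libraries of a table and bars run from the lowest to the highest library. The 5 genes at 97.6% to 99.9% lie below mt-Co1, mt-Cytb, mt-Nd1, mt-Nd2, mt-Nd4 and mt-Nd5 in all 3 tables, and mt-Atp8, which shares no window, is also low.

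The promoters of some nuclear members hold the binding motif of NRF1, a transcription factor known for the control of respiratory genes. RefSeq promoters (GRCm38.p6, 250 bases before to 50 after the start) were matched for 69 of the 86 nuclear symbols. The palindromic NRF1 motif, searched on both strands, was in 5 of them (7.25%) and in 0.977% of all 27025 promoters. The ETS motif CCGGAAG was in 16 members (23.2%) and in 9.12% of all promoters, and the YY1 motif in 4 members (5.80%) and 0.699% of all. A match describes letters in a window and is not a bound site. In 4 of the 5 genes the NRF1 motif lay before the start. All 4 were lower at P10 than at P0 in Cho-Orgs, as were 76 of the 82 nuclear members tested. A link of the motif to the fall was not tested. The stretches around the motif in Atp5g2 (chr15:102671050-102671119, minus strand), Atp5k (chr5:108434410-108434479, minus strand), Cox6a1 (chr5:115349081-115349150, minus strand) and Ndufa11 (chr17:56717672-56717741, plus strand) are shown with the motif in capitals.
Atp5g2: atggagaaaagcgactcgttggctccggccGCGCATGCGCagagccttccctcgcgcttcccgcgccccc
Atp5k: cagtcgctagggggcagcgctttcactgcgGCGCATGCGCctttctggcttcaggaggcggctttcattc
Cox6a1: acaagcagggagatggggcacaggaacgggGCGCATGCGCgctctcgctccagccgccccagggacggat
Ndufa11: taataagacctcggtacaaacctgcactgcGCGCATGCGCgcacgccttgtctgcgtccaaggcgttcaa

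The first question was whether the genes differ among the libraries labelled Pri-Hep and Hep-Orgs P1, P5 and P10. These libraries were much alike in hepatocyte and cholangiocyte markers, as given above. An absence of calls among them therefore cannot show that organoids keep the levels of primary hepatocytes. In Pri-Hep the nuclear members summed to 3737 ± 73.8 FPKM (SD, n = 3). The sum was 3728 ± 78.0 in P1, 3701 ± 24.3 in P5 and 3769 ± 78.5 in P10 organoids. The mitochondrial members summed to 44323 ± 1614, 43718 ± 459, 43085 ± 602 and 44476 ± 245 FPKM in the same order. The ranges of the 4 groups overlapped in both sums, except that the mitochondrial sum at P10 (44198 to 44661 FPKM) lay above those at P1 (43190 to 44018) and P5 (42719 to 43781). In all 6 comparisons among Pri-Hep, P1, P5 and P10, limma called 0 of the 90 members at an adjusted p of 0.05, where 0.0091, 0.0091, 0, 0, 0 and 0.0273% of all 10986 genes were called (P1, P5 and P10 against Pri-Hep, P5 and P10 against P1, and P10 against P5). At P10 against P5, 0.0182% were called higher and 0.0091% lower. At an unadjusted p under 0.05 the number of members was 19, 18, 9, 8, 17 and 18 in the same order (21.1, 20, 10, 8.89, 18.9 and 20%), against 8.29, 10.8, 6.64, 3.97, 8.98 and 11.5% of all genes. A test on the recovered whole reads with limma-voom called 2, 3, 0, 0, 2 and 1 members, against 0.264, 0.309, 0, 0, 0.237 and 0.246% of all genes. Among these were mt-Co3, which was lower at P1 than in Pri-Hep (log2 fold change -0.42 ± 0.06 SE, limma-voom adjusted p = 0.00248), and mt-Nd6, which was lower at P5 than in Pri-Hep (-0.20 ± 0.03, limma-voom adjusted p = 0.000704).

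Single genes in the hepatocyte table show how narrow the spread was. The ATP synthase beta subunit Atp5b read 142, 136 and 144 FPKM in primary cells, 135, 143 and 140 in P1 organoids, 141, 134 and 142 in P5 organoids and 138, 141 and 142 in P10 organoids. Its 4 groups overlapped. Complex II was as even, with Sdha, its flavoprotein, at 60.2 to 66.0 FPKM over all 12 libraries. The coefficient of variation over the 12 libraries had a median of 4.59% over the 77 nuclear members that passed (2.03 to 35.0%). It was 20.6% over the 5 mitochondrial genes with over 90% of their windows in other genes (13.7 to 40.8%), and 3.17% over the other 8 (1.66 to 47.8%). The widest spread of all was that of mt-Atp8, at 35.1 to 126 FPKM. The widest among nuclear genes was that of Cox7a1, the heart and muscle form of a complex IV subunit, at 0.391 to 1.60 FPKM, followed by Atp5g1, a c-ring gene of ATP synthase, at 1.52 to 3.80 FPKM. Of the 7 rows under the filter, Cox4i2, Cox6a2, Cox7b2, Cox8b, Cox8c and Ndufa4l2 are forms known from other tissues or from low oxygen, and the last was a second Atp5o row at 0.

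**Figure D2:**
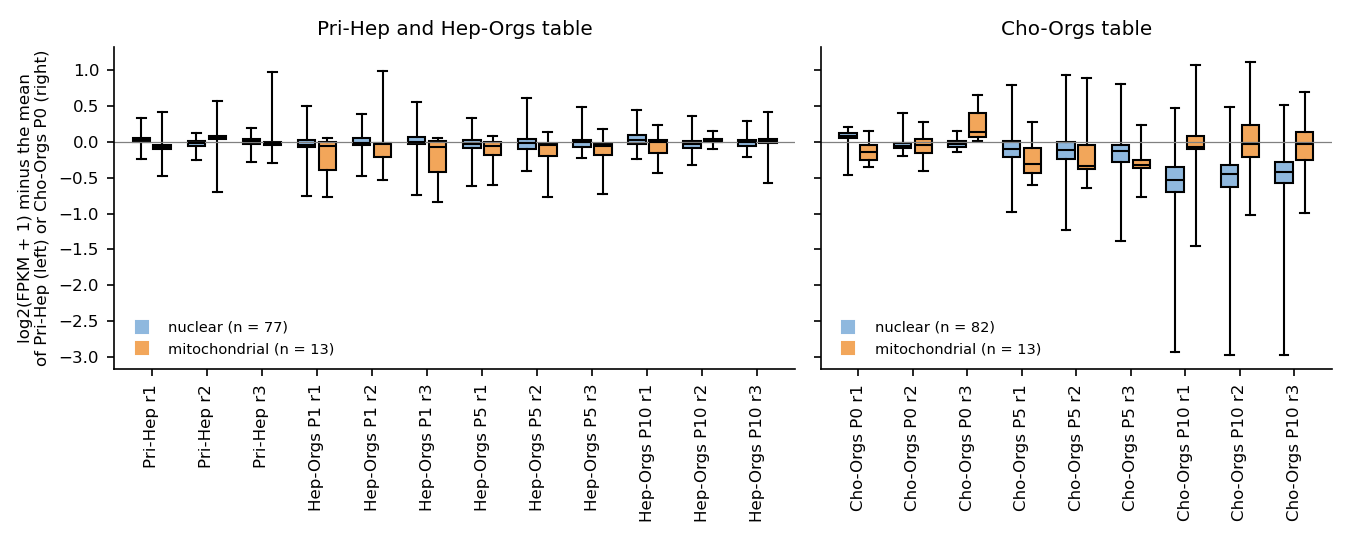
Distribution over members of log2(FPKM + 1) minus the mean of Pri-Hep (left) or of Cho-Orgs P0 (right) in each library; boxes span the quartiles with the median, whiskers reach the lowest and highest member, blue is nuclear and orange mitochondrial. The medians of the 12 hepatocyte-table libraries stay near 0, and the nuclear members of Cho-Orgs lie lower in the 3 P10 libraries than at P0.

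The second question was how the genes moved while Cho-Orgs were passaged. The nuclear members fell almost throughout between P0 and P10. They summed to 11751 ± 611 FPKM at P0 (SD, n = 3), 10955 ± 77.0 at P5 and 8596 ± 310 at P10. At P10 against P0, limma called 76 of the 82 nuclear members that passed the filter lower and 2 higher, where 31.3% of all 11593 genes were called lower and 41% higher, and 72.3% either way. Their median log2 fold change was -0.46, against 0.07 over all genes. All 3 P10 libraries lay below all 3 P0 libraries for 74 of the 82, against 32.6% of all genes. The 76 include Ndufa4l2 and Cox7a1, which passed the filter only through P0 and P5, where they are high. The genes not called were Ndufa6, Ndufb4b, Ndufb6 and Cox4i1. With size factors from median ratios in place of the authors' scaling, the nuclear median was -0.54. The hepatocyte and proliferation markers fell over the same passages by the amounts given above.

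The fall took place mostly after P5. At P5 against P0, limma called 32 of the 82 nuclear members lower and 7 higher (all genes 22.6% lower, 34% higher and 56.6% either way), with a median of -0.12. That median was -0.078 without replicate 1 of each group, -0.079 after rescaling to TPM or to genes other than mt-, and -0.21 with median-ratio size factors. At P10 against P5 it called 66 lower and 1 higher (all genes 30.5% lower, 31% higher and 61.5% either way), with a median of -0.33. All 3 P5 libraries lay below all 3 P0 libraries for 39 of the 82 (24.8% of all genes), and all 3 P10 libraries below all 3 P5 libraries for 69 (36.8% of all genes). At P5 against P0, 46 members, mitochondrial ones included, were called with all libraries (56.6% of all genes) and 29 without replicate 3 of each group. Fewer libraries lower the power for every gene. The share of all genes called without replicate 3 is not given, so the drop cannot be read as particular to the members. The members called at P10 against P0 that differed at least 2-fold were Cox6b2, mt-Nd6, Ndufa4l2 and Cox7a1. Of these, Ndufa4l2 and Cox7a1 passed the filter only through P0 and P5. The share of all genes called at 2-fold is not given. From P5 to P10, 13 of the 89 members tested in both tables had libraries that did not overlap and lay opposite ways in Hep-Orgs and Cho-Orgs, as did 7.52% of all 9860 genes tested in both; the difference itself was not tested.

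**Figure D3:**
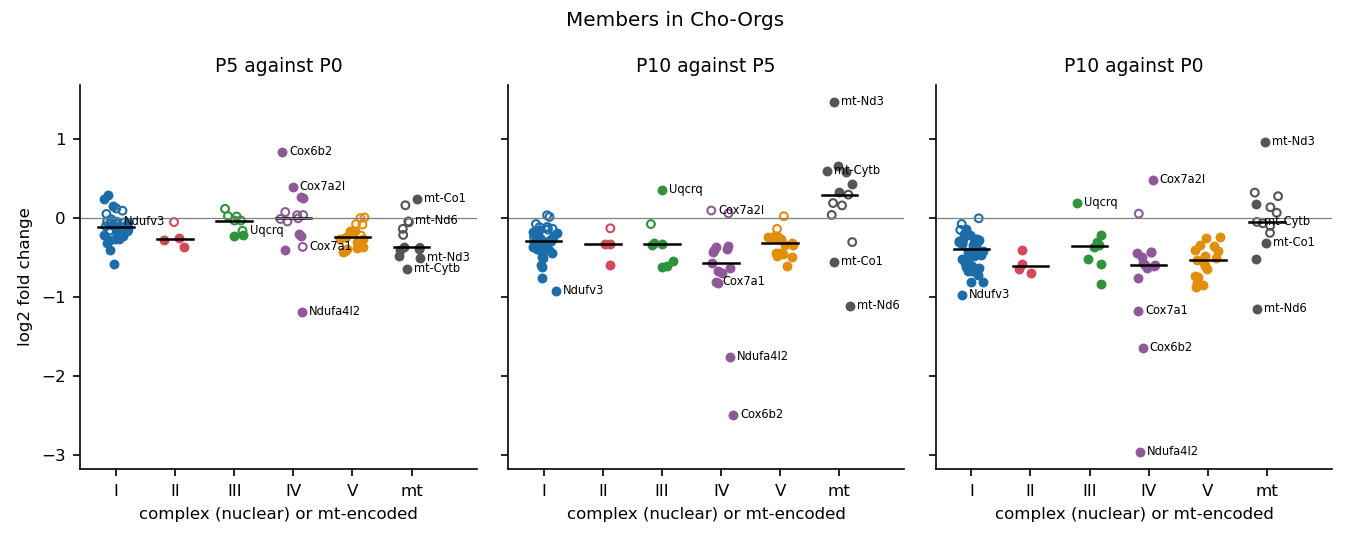
Log2 fold change on the log2(FPKM + 1) scale of every tested member in Cho-Orgs, by complex for nuclear genes and together for mitochondrial (mt) genes; filled points passed an adjusted p of 0.05 by limma, open points did not, and bars are medians. At P10 against P0 the medians of all 5 nuclear sets lie between -0.35 and -0.61, and that of the mitochondrial genes at -0.05.

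The counts of each complex are read against the shares of all genes in Cho-Orgs. These were 31.3% lower and 41% higher at P10 against P0, and 22.6% lower and 34% higher at P5 against P0. Complex I, the entry point for NADH, is the largest of the sets. Of its 38 tested nuclear members 35 were lower and 0 higher at P10 against P0 (median -0.39), and 11 were lower and 3 higher at P5. The largest fall was that of Ndufv3, a small subunit of the flavoprotein part that binds NADH. It read 72.1, 69.1 and 66.6 FPKM at P0, 66.6, 68.7 and 65.9 at P5 and 33.5, 35.4 and 35.8 at P10. The P0 and P5 libraries overlapped and all P10 libraries lay far below them, with a log2 fold change of -0.97 ± 0.05 SE at P10 against P0 (limma, adjusted p = 8.87e-08). Ndufb7, an accessory subunit, fell at both steps, from 124, 124 and 118 FPKM to 94.1, 89.1 and 92.3 and then 66.4, 69.3 and 71.8 FPKM. Ndufa5 showed the largest early fall (-0.57 ± 0.09 at P5, limma, adjusted p = 0.000367). Ndufa6, the most abundant nuclear member of complex I, stood at 356, 380 and 404 FPKM at P0 and 344, 366 and 372 FPKM at P10, and these overlap. The members called higher at P5 were Ndufa7, Ndufb4 and Ndufb4b, of which Ndufa7 and Ndufb4 were then lower than at P0 by P10.

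The 4 genes of complex II, succinate dehydrogenase, which is also an enzyme of the citric acid cycle, were all lower at P10. Sdhd, a membrane anchor, read 161, 145 and 159 FPKM at P0, 116, 126 and 117 at P5 and 94.0, 93.1 and 97.9 at P10. Its groups were separate at each step, and it was lower at P10 than at P0 (-0.70 ± 0.06, limma, adjusted p = 2.03e-06). Sdha, the flavoprotein, read 172, 150 and 157 FPKM at P0, 156, 151 and 155 at P5, and 103, 103 and 98.9 at P10. It was not called at P5 and was lower at P10 (-0.64 ± 0.05). Sdhc and Sdhb had log2 fold changes of -0.58 and -0.40 at P10.

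Complex III, which hands electrons from ubiquinol to cytochrome c, had 7 of its 8 nuclear members lower at P10 against P0 and 1 higher (median -0.35). Uqcrb, a small subunit near the ubiquinone site, read 174, 174 and 174 FPKM at P0, 149, 150 and 151 at P5, and 92.7, 94.3 and 105 at P10 (-0.84 ± 0.05, limma, adjusted p = 3.34e-07). The groups of 3 did not touch. Uqcrq went the other way, at 90.3, 79.0 and 85.1 FPKM at P0, 76.3, 73.1 and 77.5 at P5 and 90.3, 98.6 and 103 at P10. All its P10 libraries lay above P0, the nearest by a very small margin (0.19 ± 0.06, limma, adjusted p = 0.0199) and lay clear of P5. The core protein Uqcrc1 was lower by P5 (-0.22 ± 0.06) and was not called between P5 and P10 (-0.08 ± 0.06).

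Complex IV, cytochrome c oxidase, held the widest range of fold changes. Its 15 tested nuclear members split into 13 lower and 1 higher at P10 against P0 (median -0.59) and into 4 lower and 4 higher at P5. The 13 include Ndufa4l2 and Cox7a1, which passed the filter only through P0 and P5, where they are high. The share called at P5, 53.3%, was near the 56.6% of all genes. Cox7a2l, a COX7A-family protein known to join complexes III and IV in supercomplexes, was the only nuclear member with a rise of over 0.2 on the log2 scale at P10. It read 171, 162 and 174 FPKM at P0, 219, 224 and 222 at P5 and 234, 236 and 241 at P10. The P0 libraries were the lowest and the P10 libraries the highest, without overlap (0.49 ± 0.04 at P10 against P0, limma, adjusted p = 4.03e-06). Its relative Cox7a2 fell instead, from 152, 132 and 139 FPKM at P0 to 83.8, 91.0 and 106 FPKM at P10.

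The paralogues of complex IV differed in level and direction. Cox6b2, the testis form of a subunit that faces cytochrome c, read 18.7, 31.7 and 22.5 FPKM at P0, 41.7, 46.0 and 42.1 at P5 and 5.93, 7.13 and 7.71 at P10. It rose at P5 (0.84 ± 0.16, limma, adjusted p = 0.00152) and was far lower at P10 than at P0 (-1.65 ± 0.16, limma, adjusted p = 8.51e-06). Its share of the summed FPKM of Cox6b1 and Cox6b2 was 4.53, 7.39 and 1.85% at the 3 passages. Cox6b1, the general form, stood at 528, 497 and 517 FPKM at P0 and 335, 371 and 394 FPKM at P10. Cox4i1, the general form of subunit 4, was not called in any comparison, at 440 to 471 FPKM at P0, 439 to 462 at P5 and 464 to 476 at P10 (0.06 ± 0.04 at P10 against P0, limma, adjusted p = 0.278). Its low-oxygen partner Cox4i2 stayed below 0.345 FPKM.

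Ndufa4l2, a low-oxygen relative of the complex IV subunit Ndufa4, had 213, 402 and 344 fragments at P0, 129, 103 and 88 at P5, and 1, 0 and 0 at P10. It was lower at P5 than at P0 (-1.19 ± 0.18), and no fold is given against P10. Cox7a1 read 1.80, 1.74 and 2.17 FPKM at P0 and 0.228, 0.348 and 0.290 FPKM at P10. Cox8b was at 0 in all 9 libraries. Ndufa4 itself, at 276, 242 and 248 FPKM at P0, was at 160, 164 and 180 FPKM at P10 (-0.60 ± 0.07).

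In complex V, ATP synthase, 17 of 17 nuclear members were lower at P10 against P0 (median -0.53), and 12 were lower and 0 higher by P5. The catalytic subunit Atp5b read 722, 612 and 619 FPKM at P0, 476, 489 and 496 at P5 and 398, 391 and 383 at P10. Each passage lay below the one before (-0.73 ± 0.06 at P10 against P0, limma, adjusted p = 4.03e-06). Its partner Atp5a1 went from 534, 481 and 505 FPKM to 389, 388 and 385 and to 337, 328 and 330 FPKM. The largest fall at P10 was that of Atp5j2, the f subunit of the membrane part, at 269, 225 and 239 FPKM at P0 and 132, 128 and 140 at P10 (-0.87 ± 0.07, limma, adjusted p = 1.41e-06). The 3 genes that encode the same c-ring protein were all lower at P10, with log2 fold changes of -0.85 for Atp5g3, -0.65 for Atp5g1 and -0.42 for Atp5g2. The share of Atp5g2 in their sum was 47.8% at P0, 51.6% at P5 and 54.6% at P10, while that of Atp5g3 was 42.3, 39.6 and 35.8%. Of the 4 genes whose promoter stretches are shown, Atp5g2, Cox6a1 and Ndufa11 each had a log2 fold change of -0.42 at P10 against P0, and Atp5k one of -0.82. Atp5l, much of which is shared with pseudogenes, was also lower (-0.24).

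The mitochondrial genes moved in both directions. Their sum was 40337 ± 1950 FPKM at P0, 39014 ± 469 at P5 and 35775 ± 163 at P10, and the ratio of the mitochondrial to the nuclear sum was 3.44, 3.56 and 4.16. At P10 against P0, 3 of the 13 were lower and 2 higher (all genes 31.3% and 41%), with a median of -0.05, and without replicate 3 of each group the median was 0.07. At P5 against P0, 6 were lower and 1 higher (all genes 22.6% and 34%), with a median of -0.36, and of -0.22 without replicate 3. At P10 against P5, 2 were lower and 6 higher (all genes 30.5% and 31%), with a median of 0.30. Of the 13, 5 had over 90% of their windows in other genes. Among the other 8, 4 were lower and 1 higher at P5 against P0, and 2 were lower and 4 higher at P10 against P5. At P10 against P0, 2 were lower and 1 higher. These 8 include mt-Nd4 and mt-Co1, whose nuclear copies cover part of the gene.

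mt-Co1, the catalytic subunit of complex IV and the most abundant member, was highest at P5. It read 19211, 20840 and 21110 FPKM at P0, 23866, 24442 and 24045 at P5, and 16379, 16455 and 16242 at P10. The groups did not overlap, and P10 was the lowest (0.24 ± 0.05 at P5 against P0, limma, adjusted p = 0.00322, and -0.32 ± 0.05 at P10 against P0, limma, adjusted p = 0.000388). mt-Cytb, the central subunit of complex III, read 5562, 6177 and 6301 FPKM at P0, 3957, 3862 and 3759 at P5 and 5704, 5890 and 5830 at P10. It dipped at P5 (-0.64 ± 0.06, limma, adjusted p = 1.3e-05), and its P10 libraries lay within the P0 range. The ratio of mt-Co1 to mt-Cytb was 3.39 ± 0.05 at P0, 6.25 ± 0.19 at P5 and 2.82 ± 0.05 at P10 (SD, n = 3).

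The complex I genes mt-Nd1, mt-Nd2 and mt-Nd4 dipped at P5 as mt-Cytb did. mt-Nd1 read 6898, 6390 and 7198 FPKM at P0, 5045, 5262 and 5272 at P5 and 6443, 6465 and 6647 at P10, so that only P5 stood apart (-0.39 ± 0.06, limma, adjusted p = 0.000231). mt-Nd2 and mt-Nd4 had log2 fold changes of -0.36 and -0.40 at P5 against P0, and mt-Nd4 was slightly above P0 at P10 (0.18). mt-Nd5 passed the test in none of the 3 comparisons, at 1845 to 2245 FPKM at P0, 1729 to 1979 at P5 and 1873 to 1925 at P10. mt-Nd6 was lower only late, at 228, 266 and 342 FPKM at P0, 273, 294 and 237 at P5, and 99.4, 134 and 138 at P10. Its P0 and P5 libraries overlapped and P10 lay well below (-1.16 ± 0.16, limma, adjusted p = 0.000118). The ratio of mt-Nd6 to mt-Nd5 was 0.135, 0.144 and 0.0652 in Cho-Orgs, 0.795 to 0.885 in the group means of the hepatocyte table and, among the Smart-Seq libraries, 0.031 in grape-like, 0.0139 in intermediate and 0.0178 in round-like organoids; the tables were normalized separately and these values were not tested against each other.

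The 5 mitochondrial genes with over 90% of their windows in other genes moved in mixed directions. mt-Nd3 read 10.02, 7.05 and 9.93 FPKM at P0, 6.997, 6.26 and 4.80 at P5 and 19.8, 20.5 and 15.0 at P10, with the P10 libraries highest (0.96 ± 0.16 against P0, limma, adjusted p = 0.000441). mt-Co2 was lower at P10 (-0.52 ± 0.16, limma, adjusted p = 0.0141), and its P0 libraries spread from 161 to 281 FPKM. mt-Co3 was called in none of the comparisons. mt-Atp6 was lower at P5 (-0.48) and mt-Nd4l higher at P10 than at P5 (0.65). mt-Atp8 was called in none, with values of 15.0 to 38.1 FPKM over the 9 libraries.

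**Figure D4:**
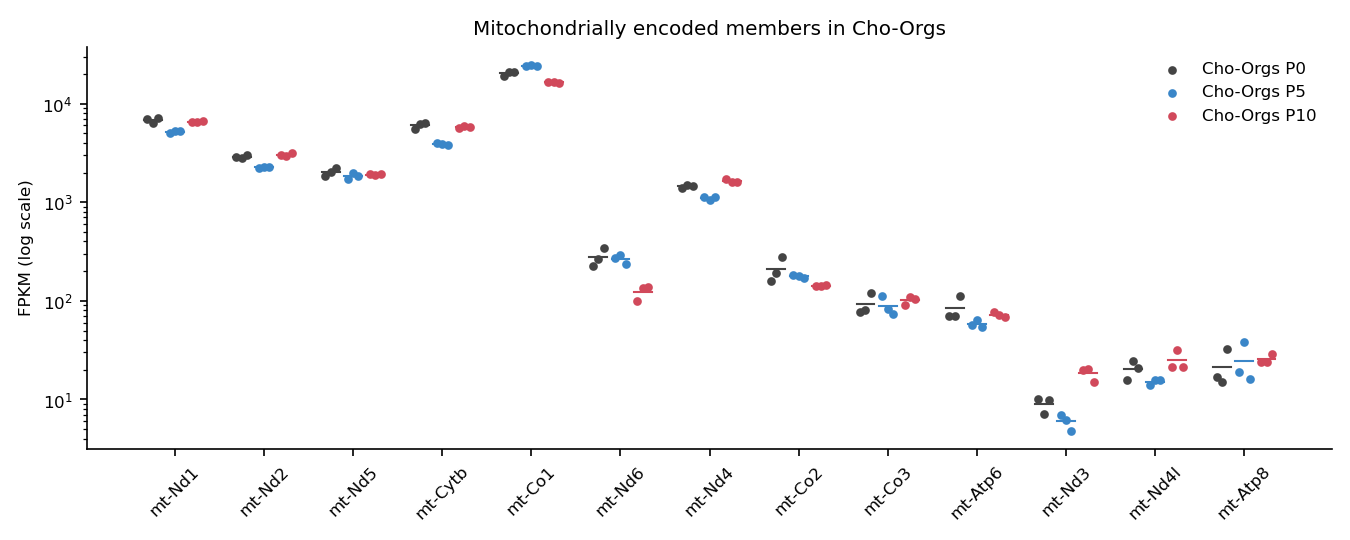
FPKM (log axis) of the 13 mitochondrial members in the 3 libraries (points) of Cho-Orgs P0, P5 and P10, with the group mean as a line. mt-Co1 is highest at P5, mt-Cytb, mt-Nd1, mt-Nd2 and mt-Nd4 are lowest at P5, and mt-Nd6 is lowest at P10.

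Genes that serve the complexes are read against the 31.3% of all genes that were lower and the 41% that were higher at P10 against P0, and no list was tested against them. Of 46 tested assembly factors 18 were lower and 6 higher (median -0.16), and of the 13 citric acid cycle genes 8 were lower and 0 higher (median -0.33), against a median of 0.07 over all genes. Higd1a, a low-oxygen-induced protein of the inner membrane, went from 38.3, 34.8 and 35.1 FPKM at P0 to 20.6, 25.6 and 20.2 at P5 and 8.96, 9.86 and 10.4 at P10. Cox20, a chaperone for the second mitochondrial subunit of complex IV, was lower too (-0.89), whereas Foxred1 and Bcs1l, which help to build complexes I and III, were higher (0.42 and 0.29). Fh1 (fumarase) and Mdh2 (malate dehydrogenase) had log2 fold changes of -0.68 and -0.50. At P5 against P0, 7 assembly factors were lower and 7 higher, and 5 citric acid cycle genes were lower and 1 higher, where 22.6% of all genes were lower and 34% higher.

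Among 23 carriers of electrons and nucleotides 11 were lower and 5 higher at P10 against P0 (median -0.15), with Cycs (cytochrome c) at -0.96 and Coq7 (an enzyme of ubiquinone synthesis) at -0.91, and with Coq10b and Coq2 at 0.50 and 0.34. Of 78 mitochondrial ribosomal proteins 33 were lower and 11 higher (median -0.15); Mrpl18 and Mrpl42 had values of -0.89 and -0.67, and Mrps18b and Mrps6 of 0.56 and 0.53. Of 13 tested genes of mitochondrial DNA upkeep and transcription 8 were higher and 2 lower (median 0.32), beside the 41% and 31.3% of all genes. Twnk, the mitochondrial DNA helicase, read 7.43, 6.44 and 7.69 FPKM at P0, 10.96, 10.94 and 10.96 at P5 and 12.5, 13.01 and 12.1 at P10. Mterf3, a regulator of mitochondrial transcription, was also higher (0.41), but Tfam, which packages mitochondrial DNA and starts its transcription, and Slirp, which stabilises its transcripts, were lower (-0.35 and -0.33). Of 7 nuclear regulators tested 5 were higher and 1 lower (median 0.32). Myc read 34.3, 30.8 and 31.7 FPKM at P0, 78.7, 80.9 and 81.8 at P5 and 152, 149 and 150 at P10. Pprc1, a coactivator related to PGC-1, was higher as well (1.46), and Hif1a, the low-oxygen regulator, was lower (-0.42).

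The last question was how the genes compare between the shapes of Hep-Orgs at P0. With 1 library per shape there is no replicate check and no test, and the log2 ratios of FPKM + 1 describe these libraries. The nuclear members summed to 9112 FPKM in grape-like, 11392 in intermediate and 11265 in round-like organoids, and the mitochondrial members to 13380, 12436 and 11558 FPKM. The nuclear median log2 ratio of grape-like over round-like was -0.30, with 67 of 80 members below 0, against -0.15 over all genes. Grape-like over intermediate gave -0.28, with 74 of 80 below 0, against 0.03 over all genes. Intermediate over round-like gave 0.01, against -0.14, and -0.05 once FPKM were rescaled to TPM. None of the 80 nuclear members differed 2-fold between grape-like and round-like, where 17.8% of all genes did (10.8% higher and 7% lower). The one nuclear member at 2-fold between intermediate and round-like (4.2% of all genes, 2.73% higher and 1.46% lower) was Cox6b2, with 4.16 FPKM in grape-like, 3.39 in intermediate and 7.91 in round-like organoids. Between grape-like and intermediate (14.2% of all genes, 8.3% higher and 5.89% lower) it was Ndufa6, at 121, 253 and 200 FPKM in the same order of shapes.

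The summed FPKM of each of the 5 nuclear sets was lowest in the grape-like library, at 2348, 2968 and 2799 for complex I, 415, 482 and 482 for II, 1043, 1286 and 1274 for III, 2589, 3112 and 3037 for IV and 2717, 3544 and 3673 for V. Atp5b read 491, 701 and 815 FPKM in this order, and Uqcrc1 read 93.0, 128 and 149 FPKM. Atp5l was higher in grape-like than in round-like, at 136, 126 and 110 FPKM. These libraries differ in other cell types too: macrophage markers summed to 10223, 2964 and 1621 FPKM (all 10 genes at 1 FPKM or more in each library), stellate and fibroblast markers to 1733, 428 and 365, hepatocyte markers to 5384, 8557 and 1269, and cholangiocyte markers to 878, 3461 and 2857 FPKM. Their part in the nuclear differences was not tested.

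The mitochondrial members split by the share of their windows found in other genes in the intermediate library. The 5 genes with over 90% shared had log2 ratios of 1.01 to 2.15 for intermediate over round-like (median 2.03), and the other 8 had -0.22 to 0.62 (median 0.16). mt-Co3 had 319 fragments in grape-like, 1888 in intermediate and 401 in round-like organoids, or 10.2, 59.6 and 12.7 FPKM. The ratio of its FPKM in intermediate over round-like was 2.08 to 2.39 on the log2 scale by the 95% interval for counting error alone. mt-Atp6 read 6.71, 40.8 and 9.08 FPKM. mt-Co1 read 5026, 4633 and 4198 FPKM and mt-Cytb 2428, 2489 and 2043 FPKM, so the abundant genes differed little. mt-Nd6 was the one mitochondrial member higher 2-fold in grape-like than in round-like, at 35.4, 12.8 and 14.5 FPKM.

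**Figure D5:**
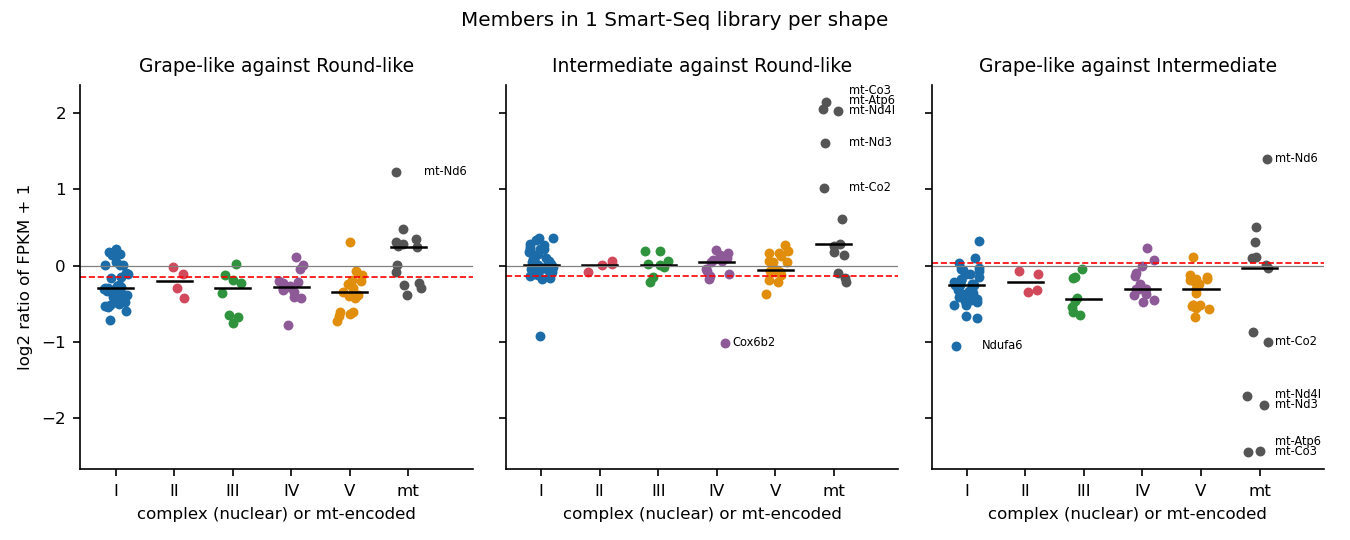
Log2 ratio of FPKM + 1 of each member between 2 Smart-Seq libraries, 1 per shape, by complex for nuclear genes and together for mitochondrial (mt) genes; black bars are medians and the red dashed line is the median of all genes. In intermediate over round-like, mt-Co3, mt-Atp6, mt-Nd4l, mt-Nd3 and mt-Co2 lie between 1.01 and 2.15 and the medians of the nuclear sets lie near 0.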

How the data were processed

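Messenger RNA was measured in 21 poly(A) libraries and 3 Smart-Seq libraries. The authors deposited FPKM in 3 tables; the submitters' processing notes name mm10, featureCounts 2.0.3 and edgeR 3.40.2, and the aligner is not given in the sources used here. FPKM times gene length gave whole fragments (within 0.01) for 100% of tested genes of the hepatocyte table, whose lengths are deposited. For Cho-Orgs the smallest length that made all values of a gene whole was taken, which gave 99.9%, and with these lengths the Smart-Seq values were whole for 96.8%. In the hepatocyte table the values were already scaled by median-ratio factors. The other tables were scaled to library totals (scale over summed fragments varied by 0.0174% in the cholangiocyte and 2.25% in the Smart-Seq table).

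Each bulk table was fitted alone, with all of its groups, by limma 3.58.1 (R 4.3.3; lmFit, then two-sided tests from eBayes with a trend), applied to log2(FPKM + 1), which understates changes of low genes. Genes entered when 3 or more libraries had an FPKM of 1 or more, and Benjamini-Hochberg adjustment was over all of them (threshold 0.05). The code was tested on simulated data. Sequences used Python 3.11.15. The main fits held no term for the mouse and treated libraries as independent. Only in an alternative fit with a replicate block were same-numbered libraries taken to share a mouse, from the study's captions. Deviations of same-numbered libraries from the group means had a median correlation of -0.00626 in Cho-Orgs (9 pairs) and -0.00155 in the hepatocyte table (18 pairs). Samples were grouped by their labels, and 0 columns of samples were left out. Alternatives were another pseudocount (0.1), filters, scalings, variance models, a replicate block, single left-out replicates, a 2-fold call and limma-voom on whole reads. The voom test for Cho-Orgs was chosen after seeing the data.

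Named genes were the 13 mitochondrial members, complex II, the 2 most abundant nuclear members and the largest rise and fall of each other complex in Cho-Orgs, paralogues, the extremes of the Smart-Seq table, and up to 2 genes each way of each further list. Ndufb7 and members named for a missed test, a shared sequence, a promoter motif or a turn of direction were added after their values were seen, as was the split by shared windows. Members and lists were chosen with earlier results of these data known.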

Additional observations from a re-analysis of the deposited data

Results flagged for a closer look

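Between P5 and P10, 13 members had all P10 libraries on one side of all P5 libraries in Hep-Orgs and on the opposite side in Cho-Orgs. Each pair of values is the difference of mean log2(FPKM + 1), P10 minus P5, first in Hep-Orgs and then in Cho-Orgs. The mitochondrial members were mt-Nd6 (0.15 and -1.11) and mt-Co1 (0.036 and -0.56). In complex I they were Ndufa10 (0.069 and -0.17), Ndufa3 (0.34 and -0.61) and Ndufa7 (0.073 and -0.44). In complex III they were Uqcr10 (0.18 and -0.54) and Uqcrq (-0.20 and 0.36), of which Uqcrq alone was lower in Hep-Orgs and higher in Cho-Orgs. In complex IV they were Cox6a1 (0.17 and -0.70), Cox7a2 (0.085 and -0.63), Cox7b (0.14 and -0.39) and Cox7c (0.12 and -0.43), and in complex V Atp5c1 (0.10 and -0.46) and Atp5j (0.13 and -0.34). The difference between the 2 kinds of organoid was not tested, since their tables were normalized separately. In the Cho-Orgs all 13 passed the limma test at P10 against P5, and in the Hep-Orgs 0 of the 13 did. The 13 are 14.6% of the 89 members tested in both tables, and 7.52% of all 9860 genes tested in both met the same criterion. In Hep-Orgs, 22 of the 90 members (24.4%) had P5 and P10 libraries that did not overlap, against 17.1% of all 10986 genes. The 12 hepatocyte-table libraries differed little by marker genes, as given in the report.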

How the results depend on the processing

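In Hep-Orgs the count of members called stayed at 0 in all 6 comparisons under every alternative except limma-voom on whole reads, which called 2 (P1 against Pri-Hep), 3 (P5 against Pri-Hep), 2 (P10 against P1) and 1 (P10 against P5); the cause was not tested. Median-ratio size factors change nothing there by construction, since the table already carries them.

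In Cho-Orgs a call that also asks for a 2-fold change kept 1 member at P5 against P0, 4 at P10 against P0 and 4 at P10 against P5. Ndufa4l2, nearly at 0 at P10, is counted in each of these. With single replicates left out, 29 to 37 members were called at P5 against P0, 76 to 81 at P10 against P0 and 66 to 70 at P10 against P5. Without replicate 3 in P5 against P0 the count was the lowest, 29. The shares of all genes under the 2-fold call and without single replicates are not given, so these counts cannot be read as particular to the members. The median of the mitochondrial members ranged from -0.37 to -0.22 at P5 against P0, from -0.049 to 0.068 at P10 against P0 (turned without replicate 3) and from 0.29 to 0.36 at P10 against P5; the cause was not tested. With median-ratio size factors the nuclear median was -0.21 at P5 against P0 and -0.54 at P10 against P0. At P5 against P0 it was -0.079 after rescaling to TPM or to genes other than mt-, and -0.078 to -0.15 with single replicates left out. Slopes over passage of 44 named members passed an exact permutation test with Benjamini-Hochberg adjustment in 25 cases, and in 0 without replicate 1, 2 or 3, where 6 libraries allow no p under 0.0222. Some of these members were named for their large change in the same libraries, so the passes are no separate support. The share over all genes is not given.

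With the replicate block, 42 members were called at P5 against P0, 82 at P10 against P0 and 71 at P10 against P5, and 0 in each Hep-Orgs comparison. The share of all genes called with the block is not given. Among named members the block ended the calls of Ndufa4 at P5 against P0 and of Ndufa5 and Atp5g1 at P10 against P5, added that of mt-Nd4l at P5 against P0, and changed no other.

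In the Smart-Seq table the mitochondrial median of grape-like over round-like was 0.27 (TPM), 0.33 (median-ratio) and 0.28 (scaled to genes other than mt-). For intermediate over round-like the nuclear median was -0.050, 0.16 and -0.048 under the same 3 scalings, turned by the first and the last, and the mitochondrial one 0.22, 0.43 and 0.22, and 0.25 with a mean FPKM of at least 5. For grape-like over intermediate the nuclear median was -0.19 scaled to genes other than mt-, and the mitochondrial one 0.050, -0.10 and 0.057, and 0.0072 with a mean FPKM of at least 5. Of the further values for single members, 1910 stayed on their side of the threshold, 219 lost and 18 gained the call, and 0 turned direction. Counts of a few fragments limit Ndufa4l2 at P10, and the Smart-Seq values have 1 library per shape.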
